A study of Mus musculus with 24 samples.

Results

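The Elavl genes, Elavl1 to Elavl4, encode the Hu RNA-binding proteins and are 4 of the 21951 protein-coding genes in the annotation used. They were chosen by name, and every deposited peak on the strand of the gene that shared at least 1 bp with a gene body was taken, which gave 34 of the 29007 listed peaks. The peaks came from an RNA immunoprecipitation (RIP) of STAU2 (Staufen 2), which binds double-stranded RNA and is known for moving messenger RNAs within neurons and sorting them between dividing progenitors and their daughters. Mouse embryonic cortex was taken on 4 embryonic days, E11.5, E13.5, then E15.5 and lastly E17.5, and on each day 3 STAU2 RIP libraries stood beside 3 libraries of input RNA, 24 in all. The labels give no strain, genotype or treatment, and each replicate was made from the cortices of 1 pooled litter, so the lists hold a mixture of cortical cell types.

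Peaks were deposited per day and strand, with no value for a single library, so the spread between replicates is unknown and no difference between days could be tested. Read depth is also unknown, and the lists do not say whether a peak means that the RIP held more of that RNA than the input did. A missing peak does not show a missing transcript. In bulk tissue, fewer cells of a type and less RNA per cell cannot be told apart. Each peak carries the authors' signal, whose scaling is not given in the sources used here, and their p- and q-values. Ranks below are by that p within a day over both strands, with rank 1 the smallest p.

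Hu proteins bind AU-rich and U-rich stretches in introns and 3' UTRs and act on the splicing, stability and translation of the bound RNA. Elavl1 encodes HuR, which is made in nearly all cell types, whereas Elavl2 (HuB), Elavl3 (HuC) and Elavl4 (HuD) are made mainly in neurons, where they are known for their part in neuronal differentiation. The genes are described here by the listed peaks on their RNAs, not by the proteins they encode.

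Of the 34 peaks, 25 belonged to E11.5 and 7 to E15.5, while E13.5 and E17.5 had 1 each. Elavl4 held 19 of them, Elavl3 held 7, Elavl2 held 6 and Elavl1 held 2. An exonic peak, one sharing at least 1 bp with an exon, was found in all 4 genes at E11.5, where 9.09% of protein-coding genes had one. At E13.5 it was found in 1 of the 4, Elavl2, beside 11.8% of genes. At E15.5 it was found in Elavl1, Elavl2 and Elavl3, beside 19.9% of genes, and at E17.5 in Elavl3 alone, beside 13.6% of genes. A peak anywhere in the gene body was found in the same numbers of members, beside 10.4%, 12.6%, 20.8% and 14.3% of protein-coding genes in the order of the days. With 4 members these shares move in steps of a whole gene and are a description. The percentages are of all annotated protein-coding genes, whether or not they are expressed in cortex. In the order by p, the E15.5 count rests on the length of that day's list. Among the 5871 peaks with the smallest p, the length of the shortest list, only Elavl3 had one, with 1 peak. At E11.5 all 4 genes still did. By signal, the 7 E15.5 peaks stood above 49.1% to 94.2% of that day's peaks, and no cut by signal was made. No Elavl gene had a peak on all 4 days, and each had its own set of days. An exonic peak at E11.5 alone, as in Elavl4, was found in 523 of the 6618 genes with any exonic peak. The set of E11.5 and E15.5, as in Elavl1, was found in 344 genes, that of Elavl2 (E11.5, E13.5 and E15.5) in 294 and that of Elavl3 (E11.5, E15.5 and E17.5) in 198.

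**Figure D1:**
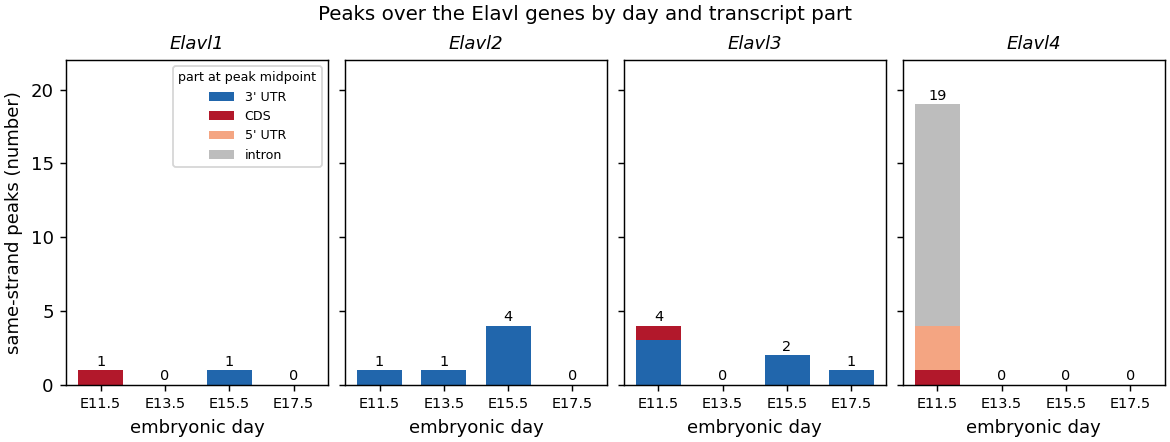
Number of same-strand peaks (y axis) over each Elavl gene at each embryonic day (x axis), coloured by the transcript part at the peak's midpoint. Elavl4 has 19 peaks at E11.5 and none later, 15 of them with an intronic midpoint, while all 6 Elavl2 peaks lie in the 3' UTR.

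By transcript part at the midpoint, over all isoforms, 13 peaks lay in a 3' UTR, 3 in coding sequence, 3 in a 5' UTR and 15 in an intron. The 13 in 3' UTRs belonged to Elavl1, Elavl2 and Elavl3, and all 18 in 5' UTRs or introns belonged to Elavl4. At E11.5, 4 of the 25 peaks lay in a 3' UTR, 3 in coding sequence, 3 in a 5' UTR and 15 in an intron. Among all pairs of a peak and a protein-coding gene that day, these parts held 22.9%, 16.9%, 1.52% and 55.2%. The 7 peaks of E15.5 all lay in a 3' UTR, beside 42.4% of such pairs, while introns held 35.8%. The single peaks of E13.5 and E17.5 lay there too, beside 36.7% and 45.5%. Of the 15 peaks of Elavl1, Elavl2 and Elavl3, 12 had a signal above the median of their day, but 7 were in the stronger 50% by p. Of the 19 Elavl4 peaks, 2 were above the median signal and 5 were in the stronger 50% by p. Signal and p therefore ordered the same peaks differently, and both are given below. Over all genes, signal also differed by transcript part. At E11.5 its median was 39.8 in 3' UTRs, 42.0 in coding sequence, 25.7 in 5' UTRs and 19.3 in introns, beside 24.7 over all listed peaks. Transcript part and member cannot be told apart in these counts by signal.

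The sequences that the results turn on are shown first, as RNA-strand sequence 5′ to 3′ in mm10 coordinates. All 4 genes lie on the minus strand, and bases come from the GENCODE vM21 transcripts except where a RefSeq table is named. From 3' UTRs at most 30 bases are printed, from the middle of a peak or around bases that peaks of several days share. The coding peaks show where STAU2 RIP peaks met the reading frames of the family; capitals in the first mark the start codon.
Elavl1 coding peak of E11.5, chr8:4311685-4311790: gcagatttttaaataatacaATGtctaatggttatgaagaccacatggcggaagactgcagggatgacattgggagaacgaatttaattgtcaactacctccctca
Elavl3 coding peak of E11.5, chr9:22018562-22018650: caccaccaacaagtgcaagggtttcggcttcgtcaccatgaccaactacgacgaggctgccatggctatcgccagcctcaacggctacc
Elavl4 coding peak of E11.5, chr4:110251377-110251427: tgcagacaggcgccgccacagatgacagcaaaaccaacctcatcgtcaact

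The 3' UTR stretches below are the places that came back on more than 1 day, the Elavl2 peak with the highest signal, the Elavl3 peak with the lowest folding energy and the single 3' UTR peak of Elavl1. In the Elavl2 stretch chr4:91252556-91252585 capitals mark the bases under the peaks of all 3 days. Its lower-case bases lay outside the peak of E11.5 or that of E13.5. In the other stretches capitals mark a match to one of the U-rich or AU-rich motifs counted further on. Such a match occurred in the Elavl2 stretch chr4:91250917-91250946 only.
Elavl2 at E11.5, E13.5 and E15.5, chr4:91252556-91252585: aagagcctCTTTGATGTGGGTTTaaaaaaa
Elavl2 at E15.5, the peak with the highest signal, chr4:91250917-91250946: cacttaataaaatgtaaggctggtATTTAt
Elavl3 at E11.5 and E15.5, chr9:22016835-22016864: ggggctctcactccccacaacactgaggcc
Elavl3 at E17.5, chr9:22015316-22015345: ggctcccagggagaggggcccttgggtctt
Elavl1 at E15.5, chr8:4288897-4288926: gccaggccctccagagacacaaaaggtgtt

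Elavl1 (ENSMUSG00000040028.10, chr8:4285382-4325413) had 1 peak at E11.5 and 1 at E15.5. The E11.5 peak, chr8:4311685-4311790, was 106 bp wide and lay over the translation start. It held 16 bases of 5' UTR and the first 86 bases of the coding sequence, in exon 2 of the 6 exons of Elavl1-201, and 4 bases before that exon, which are exonic in another isoform. Its signal was 111 and its p 6.55e-05 in the authors' deposited table, rank 416 of 6530, the best rank of any exonic Elavl peak. The E15.5 peak, chr8:4288844-4288979, was 136 bp wide and lay in the 3' UTR, 624 to 759 nt after the last coding base. Its signal was 62.3 and its rank 9648 of 10265. The Elavl1 RNA thus had a peak at the start of its reading frame on the earlier day and beyond its end on the later day, and the later peak stood near the end of its day's list by p. On the opposite strand 1 peak of E17.5, chr8:4325235-4327773, shared 179 bp with the Elavl1 body; it lies over Ccl25, a chemokine gene of the plus strand, and was not counted.

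Elavl2 (ENSMUSG00000008489.18, chr4:91250763-91400785) had all 6 of its peaks in the 3' UTR, in the last of the 8 exons of Elavl2-208. A single place carried a peak on 3 of the 4 days. The E11.5 peak, chr4:91252563-91252623, had a signal of 110 and rank 5467 of 6530. The E13.5 peak, chr4:91252526-91252577, had a signal of 58.0 and rank 1611 of 5871. The E15.5 peak, chr4:91252515-91252594, had a signal of 54.6 and rank 9523 of 10265. The 3 peaks together covered 109 bp and shared 15 bp, chr4:91252563-91252577, which lie 666 to 680 nt after the last coding base and are the capitals in the first 3' UTR stretch above. The E13.5 peak lay wholly inside the E15.5 peak, whereas the E11.5 peak, shifted toward the coding sequence, shared 32 bp with the E15.5 peak and 15 bp with the E13.5 peak. Elavl2 was the one member with a peak at E13.5.

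The other 3 Elavl2 peaks were listed at E15.5 alone and lay further along the 3' UTR. They started 1276, 1979 and 2255 nt after the last coding base, and their signals were 52.1, 22.2 and 191. The last of them, chr4:91250876-91250988, had the highest signal of the 34 Elavl peaks, above 94.2% of the peaks of E15.5, but its rank by p was 8165 of 10265. Its last base stood 113 nt from the annotated end of Elavl2-208. At E15.5 all 4 Elavl2 peaks ranked at 8165 or lower, in the weaker part of the list.

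Elavl3 (ENSMUSG00000003410.8, chr9:22015005-22052023) had 4 peaks at E11.5, 2 at E15.5 and a single one at E17.5, all of them in its last exon, exon 7. At E11.5 the coding peak chr9:22018562-22018650 lay 56 to 144 nt before the end of the coding sequence, with a signal of 67.2 and rank 2192 of 6530. The 3 E11.5 peaks in the 3' UTR were chr9:22016814-22016907 (signal 14.0, rank 2993), chr9:22016348-22016570 (signal 65.4, rank 4269) and chr9:22015038-22015136 (signal 23.8, rank 1269). The last of these ended 33 nt before the annotated transcript end. At E15.5 the peaks were chr9:22017103-22017173, with a signal of 129 and rank 3586 of 10265, and chr9:22016678-22016885, with a signal of 82.9 and rank 8228. The second of these overlapped the E11.5 peak chr9:22016814-22016907 by 72 bp, 1621 to 1692 nt after the last coding base, where the signal was 14.0 at E11.5 and 82.9 at E15.5. Signals of different days may be scaled differently, so no change is read from this pair. At E17.5 the single peak chr9:22015307-22015354 was 48 bp wide, lay 3152 to 3199 nt after the last coding base, and had a signal of 73.1 and rank 2808 of 6341. It overlapped no Elavl3 peak of another day.

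**Figure D2:**
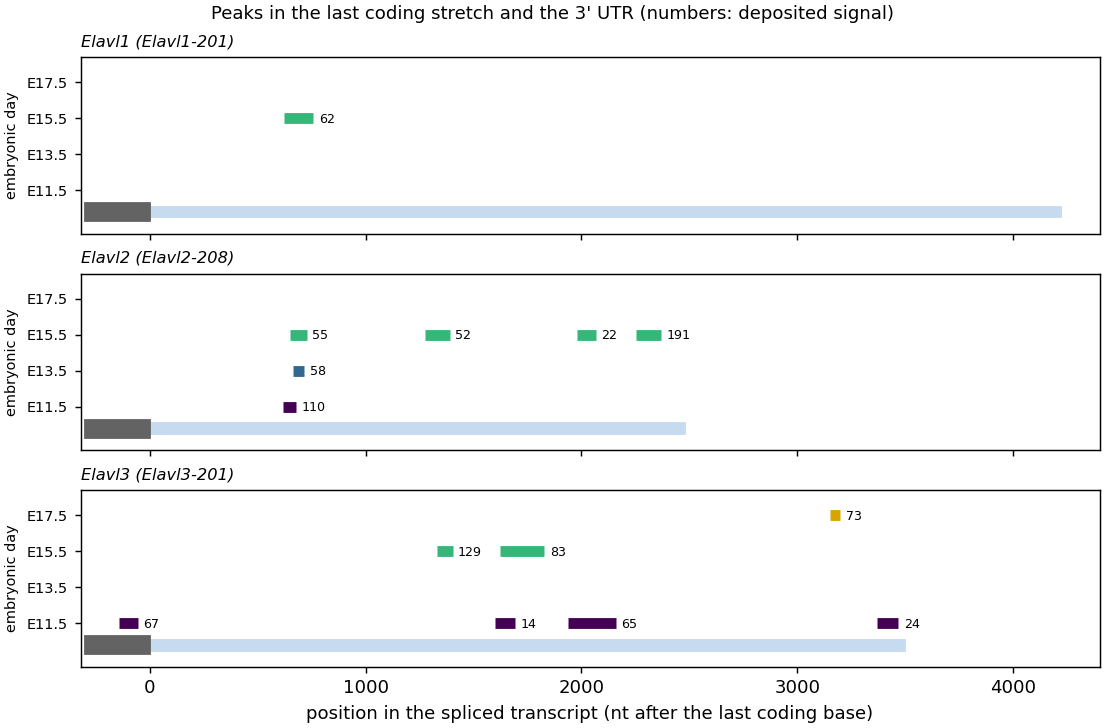
Peaks of Elavl1, Elavl2 and Elavl3 near the end of the coding sequence (grey) and in the 3' UTR (light blue); the x axis is nt after the last coding base in the longest protein-coding isoform, the y axis the embryonic day, and the number beside each bar the authors' signal; the Elavl1 peak at the start codon lies outside the plot. The Elavl2 peaks of 3 days meet 666 to 680 nt after the coding sequence, and the Elavl3 peaks of E11.5 and E15.5 overlap 1621 to 1692 nt after it.

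Across the family, 5 of the 34 peaks were overlapped by a peak of another day, 3 in Elavl2 and 2 in Elavl3. The rest of the 3' UTR peaks each lay at a place of their own, at distances of 624 to 3370 nt from the coding sequence at their near edge. The share of all listed peaks that were overlapped on another day was not computed, so the 5 peaks are a description.

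Elavl4 (ENSMUSG00000028546.17, chr4:110203722-110351909) differed in form from the other members. All 19 of its peaks were listed at E11.5, and none was in the 3' UTR. They lay between chr4:110251377 and chr4:110287412, a span of 36036 bp that makes up 24.3% of the gene body, of which 18.2% was under a peak. In the direction of transcription the span ran from the first exons of isoforms that start inside the gene, at chr4:110287527 and chr4:110286889, through the first intron of Elavl4-203 to its exon 2. The 47559 bp after exon 2, with the rest of the reading frame and the 3' UTR of 2598 nt, held no peak on any day.

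In the exons, the coding peak of 51 bp in exon 2, chr4:110251377-110251427, had a signal of 44.2, the highest of the 19, and rank 3995 of 6530. The 3 peaks with a midpoint in a 5' UTR were chr4:110286561-110286648, chr4:110286680-110286852 and chr4:110287365-110287412, with signals of 20.3, 19.4 and 29.1. A peak of 50 bp, chr4:110286881-110286930, crossed the annotated start of Elavl4-203. It is shown because it places a peak on both sides of a start site; the sequence is from the RefSeq promoter table on GRCm38.p6, with the first 9 bases of the exon in capitals.
Elavl4 at E11.5, chr4:110286881-110286930: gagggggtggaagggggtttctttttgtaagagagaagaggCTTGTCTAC

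In the first intron of Elavl4-203, chr4:110251522-110286469, 13 peaks lay wholly between the exons. They were 56 to 822 bp wide, with a median of 230 bp, and covered 10.5% of the 34948 bp. Their ranks by p had a median of 4846 and reached down to 6476. The best, chr4:110276147-110276291, had a p of 1.2e-05 in the authors' deposited table and was in the strongest 1.55% of the day. A further peak of 2476 bp, chr4:110251484-110253959, reached 38 bp into exon 2. The 15 peaks with an intronic midpoint had nearly the same signal, from 17.4 to 18.5, a ratio of 1.06 between the highest and the lowest, and 2 of them carried exactly the same value. The p-values of these peaks differed far more than their signals. Only 2.54% of all E11.5 peaks had a signal in that range, and the median over all peaks with an intronic midpoint that day was 19.3.

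**Figure D3:**
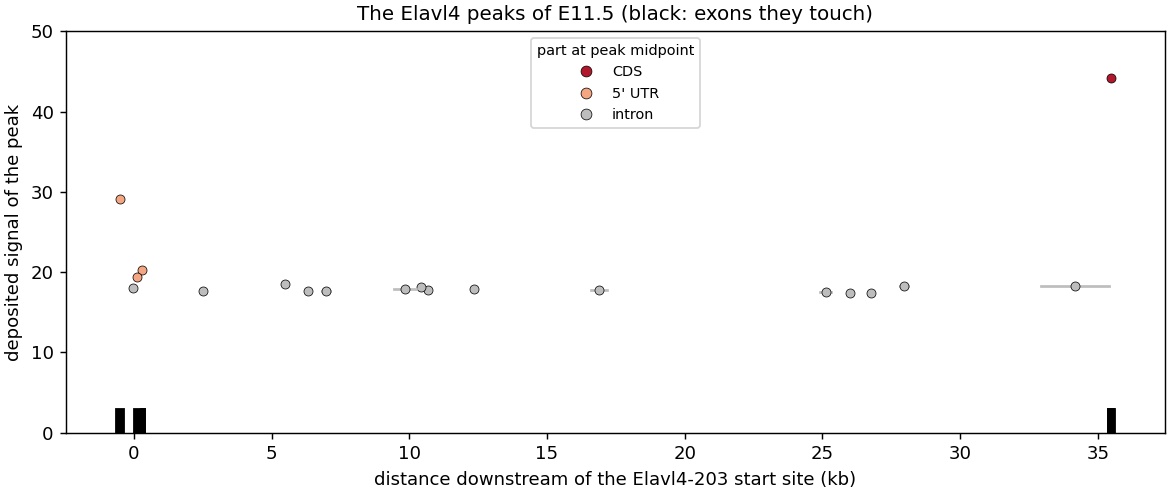
Signal of the 19 Elavl4 peaks of E11.5 (y axis) against distance downstream of the Elavl4-203 start site in kb (x axis); horizontal lines are peak widths, colours the part at the midpoint, and black marks the exons the peaks touch. The intronic peaks sit between 17.4 and 18.5 along the whole intron, below the coding peak at 44.2.

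Such runs of intronic peaks were not limited to Elavl4. Of 2293 protein-coding genes with a peak in the body at E11.5, 23 had more than Elavl4 and 2 had as many. There were 41 genes with 10 or more peaks wholly inside introns at E11.5. In 30 of them, Elavl4 among these, every such peak lay in a single intron of the longest coding isoform, and in 11 that was the first intron. The ratio of highest to lowest signal within a gene had a median of 1.09 over the 41, and 16 had a smaller ratio than Elavl4. The level itself differed between these genes, with median signals from 3.68 to 99.0. What sets this level was not tested.

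In base composition the 3' UTR peaks of the family differed widely from one another. In windows of the midpoint base and 50 bases on each side of it, GC content ran from 28.7% to 72.3% over the 13 Elavl windows, beside a median of 47.5% over the 8830 windows around 3' UTR peaks of all genes. The 6 Elavl2 windows had between 28.7% and 38.6% GC, and the 6 Elavl3 windows between 44.6% and 72.3%, so these ranges did not overlap. The Elavl1 window, with 54.5%, lay inside the Elavl3 range. How often the windows of other genes separate in this way was not counted. Peaks of 1 gene share its base composition, and the overlapping ones share bases, so the windows are not independent.

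The folding energy that RNAfold gave for the same windows ran from -52.9 to -8.3 kcal/mol, with a median of -18.5 beside -20.7 over all 3' UTR windows. More negative values stand for a more stable predicted fold. The Elavl3 window of E17.5 had the lowest energy, -52.9 kcal/mol, with 68 bases paired in the predicted fold beside a median of 54, and 3 of the 8830 windows had a lower one. Its GC content of 72.3% was above that of 99.9% of them. The peak at its centre was 48 bp wide, so more of the folded sequence lay outside the peak than inside it. The Elavl3 windows that overlap between E11.5 and E15.5 followed at -33.5 and -37.5 kcal/mol, with 7.01% and 2.87% of all 3' UTR windows lower. At the other end, the Elavl2 window around chr4:91251853-91251967 had -8.3 kcal/mol and 47.5% T. The windows around the Elavl2 place that came back on 3 days had between -17.7 and -15.2 kcal/mol, weaker predicted folds than the median window.

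**Figure D4:**
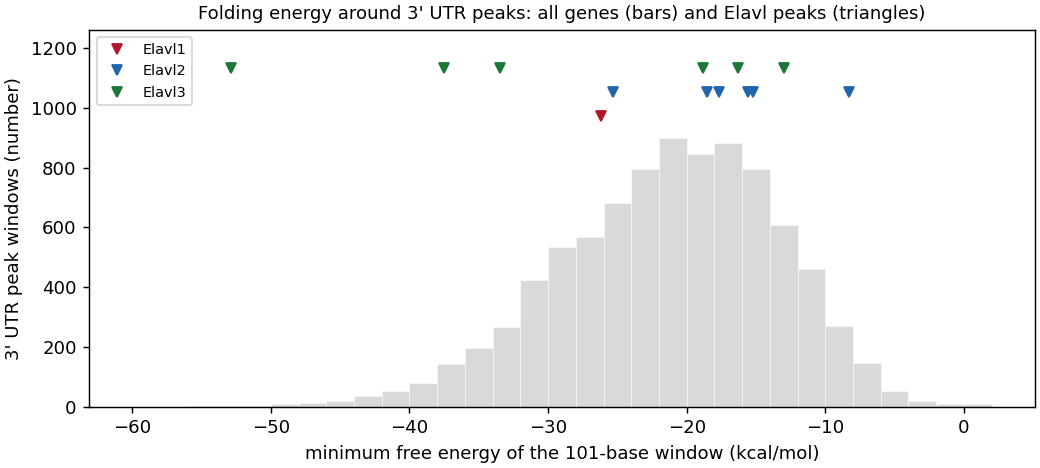
Histogram of the minimum free energy (x axis, kcal/mol) of windows around the midpoints of 3' UTR peaks of all genes on all days (bars, number of windows), with the 13 Elavl windows as triangles at an arbitrary height, 1 row per gene. The Elavl3 window of E17.5, at -52.9 kcal/mol, stands at the low edge, and the Elavl2 windows lie between -25.3 and -8.3.

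Hu proteins bind U-rich and AU-rich RNA, so a few short motifs were counted in the windows, on the RNA strand and on its reverse complement. The T run, TTTTT on the RNA strand, was in 4 of the 13 Elavl 3' UTR windows, all of them in Elavl2, beside 21.1% of all 3' UTR windows. Of these 4 windows, 3 surround the Elavl2 place that came back on 3 days and overlap one another. The E11.5 peak at that place held no T run within its own bases. The split T run with any base in its middle, TTTNTTT in letters, was in 2 windows, beside 12.9%; a run of 7 T matches this motif and the T run alike. The AU pentamer, ATTTA in letters, was in 1 window, beside 11.9%. On the reverse complement the T run matched in 3 windows, the split run in 3 and the AU pentamer in 1, beside 13.1%, 8.74% and 12.1%. The 3 windows were for both runs those of the same Elavl2 place. None of the 6 Elavl3 windows in the 3' UTR held any of the motifs on either strand. The Elavl1 coding window held the AU pentamer and the T run once each, beside 3.53% and 3.77% of coding windows. Its T run lay before the start codon, in the 5' UTR, and 9.67% of 5' UTR windows held one. The Elavl4 coding window held the AU pentamer once, outside its peak, so that 2 of the 3 coding windows had it. Of the 3 Elavl4 windows in 5' UTRs, the one around chr4:110287365-110287412 held the AU pentamer once, the T run 3 times and the split run 2 times, overlapping matches included. Among all 5' UTR windows, 3.67%, 9.67% and 5.67% held each. The peak itself held the AU pentamer once and neither run, so the runs lay beside it. The peak chr4:110286680-110286852 held the AU pentamer and the split run once each, outside its window. A match here is a description of letters and no site.

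Near-identical copies can share reads, so the coding bases under each coding peak were compared with the paralogs. The best ungapped match anywhere in any transcript of each paralog was taken, untranslated regions included. Of the 89 bases of the Elavl3 coding peak, 92.1% were identical in Elavl4, with a longest identical run of 29 bases, 80.9% in Elavl1 and 79.8% in Elavl2. The Elavl4 coding peak shared 78.4% of its bases with Elavl3, with a longest run of 19. The first 86 coding bases of Elavl1 had best matches of 45.3% to 46.5% in the others, with longest runs of 8 to 11 bases. Such a low best match need not lie at the corresponding place of the paralog. The Elavl3 coding peak thus had the highest identity to a paralog. How reads with several matches were treated is not given in the sources used here, and their part in this peak was not tested.

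Genes for other RNA-binding proteins of the cortex in part had the same days as an Elavl gene. Celf1 and Igf2bp3 had exonic peaks on the days of Elavl1, Nova1 and Ptbp2 on those of Elavl2, Igf2bp2 on those of Elavl3, and Msi2, like Elavl4, at E11.5 alone. The Celf family, splicing and decay factors that bind GU-rich RNA, had an exonic peak in 3, 3, 4 and 4 of its 6 genes from E11.5 to E17.5. Celf3 had 8 exonic peaks at E15.5 and 4 at E17.5, when Elavl3 had 2 and 1. The neuronal splicing regulators Nova1 and Nova2 had one in 2, 2, 2 and 1 of 2, and Nova2 had peaks on all 4 days. The Rbfox family, splicing regulators of neurons, had one in 0, 2, 2 and 3 of 3 genes. Rbfox2 had no exonic peak at E11.5, when all 4 Elavl genes had one, and then 5, 7 and 3 on the later days in order. The progenitor genes Msi1 and Msi2 had one in 2, 1, 1 and 1 of 2, the Ptbp family in 1, 1, 2 and 0 of 3, and the Igf2bp family in 2, 0, 3 and 1 of 3. No test of a difference between families was possible.

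**Figure D5:**
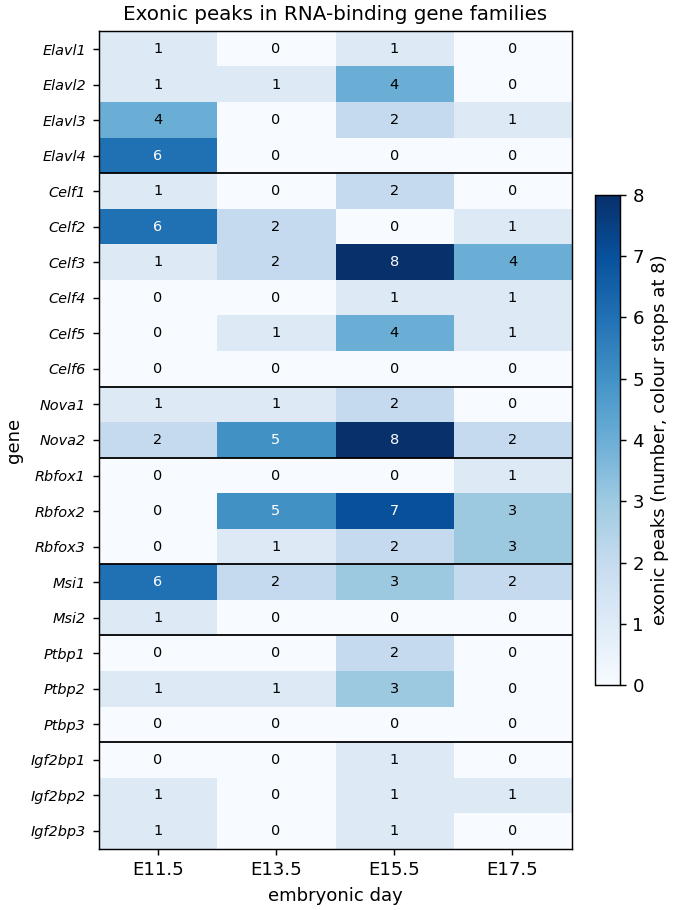
Number of same-strand peaks touching an exon (cell values and colour) for each gene (rows, grouped by family between lines) at each embryonic day (columns). Every Elavl gene has at least 1 at E11.5 and, among them, Elavl2 alone at E13.5, whereas the Rbfox genes have none at E11.5 and between 1 and 3 each at E17.5.

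Other genes of Hu biology were taken from lists. Of 20 genes for proteins that bind AU-rich or U-rich RNA, an exonic peak was found in 11, 8, 10 and 7 in the order of the days. Zfp36l1, whose protein promotes the decay of AU-rich messenger RNAs, had 4 exonic peaks at E11.5 and none later, the same days as Elavl4. It was 1 of 4 genes with exonic peaks at E11.5 alone, among the 16 of this list with any. Over all protein-coding genes these numbers were 523 and 6618. Khsrp, a KH-domain decay factor, had 2 at E11.5 and 3 at E15.5, the same days as Elavl1. Hnrnpd (AUF1), which binds many of the same AU-rich RNAs as HuR, had 1 or 2 on every day. Of 29 transcripts widely described as Hu targets, 7, 9, 10 and 7 had an exonic peak from E11.5 to E17.5. Mapt, which encodes the microtubule protein tau, had none at E11.5 and 2, 5 and 1 on the later days. Gap43, a growth-cone gene whose RNA is a classical HuD target, had 1, at E15.5. Msi1 had 6 exonic peaks at E11.5 and between 2 and 3 on each later day. Of 16 markers of the embryonic cortex, 3, 8, 9 and 2 had an exonic peak. Emx2, a transcription factor gene of cortical progenitors, had 3, 1, 4 and 0 exonic peaks in the order of the days, and the progenitor genes Sox2, Nes and Vim had none on any day. All of these shares stand beside the percentages of protein-coding genes given above for exonic peaks. Those percentages are of all annotated genes, not of genes chosen for expression in cortex, so the listed genes are not a like set.

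Genes with the most similar pattern were found by the Euclidean distance between vectors of 8 numbers, log2(1 + number) of exonic and of other body peaks on each of the 4 days. For Elavl4 the nearest was Upf2, a nonsense-mediated decay factor, at a distance of 0.61, with 4 exonic and 17 other peaks at E11.5 and none later. Trak1, an adaptor for mitochondrial transport, followed at 0.86 with 7 exonic and 24 other peaks, and Rsf1, a chromatin remodelling factor, at 1.26. For Elavl3 they were Cpsf7, a 3' end processing factor, at 0.42, then Smc1a and Ttc13 at 0.58. For Elavl2, Nsd2 and Sp2 had the same numbers on every day, and Nsd3 stood at 0.32. For Elavl1, 129 genes had the same numbers, of which Cdip1, Dhx15 and Copb1 were the closest in gene length.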

How the data were processed

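The members, gene lists and motifs were chosen with earlier results of these data known. The authors deposited 1 peak list per day and strand, in mm10 per the labels, with a score, a signal, a p-value and a q-value for each peak. Named without a role in the submitters' processing notes are Cufflinks 2.2.1, bedtools 2.17.0, TopHat2 2.0.9 and TopHat; no peak caller or test is given in the sources used here. Between 94.1% and 97.4% of peaks over a single gene lay on the gene's strand with pos taken as plus and neg as minus. Peaks were assigned to GENCODE vM21 genes on GRCm38 with at least 1 shared bp. The part was read at the midpoint in the order 3' UTR, coding, 5' UTR, noncoding exon, intron. Positions refer to the longest spliced protein-coding isoform. Windows were folded with RNAfold 2.7.2; other steps used Python 3.11.15 and pandas 2.3.3. The assignment was tested on simulated peaks. Every listed peak of a member is named or counted. Apart from 1 stretch across an Elavl4 start site, from the RefSeq promoter table, intronic sequence was not used here, nor was protein sequence. Alternatives were thresholds, overlaps, isoforms and list lengths. Results for some genes of the lists are not reported here.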

Additional observations from a re-analysis of the deposited data

How the results depend on the processing

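Of 50 values under other settings, 31 stayed within 1.5 times the main count or, for shares of genes, within its 95% binomial interval. With the stronger 50% of each day's peaks by p, the Elavl genes kept 9 peaks at E11.5 and 1 at E15.5, and 1 gene with an exonic peak at E15.5, Elavl3. With each day limited to its 5871 strongest peaks by p, the length of the shortest list, E15.5 kept 1 peak in 1 gene, again Elavl3. Under that limit E11.5 kept 22 peaks in 4 genes. In the order by p, the E15.5 peaks of Elavl1 and Elavl2 thus rest on the greater length of that day's list. A cut by signal was not made. At q below 0.001 the Elavl genes had 0 peaks and 0 genes on every day; that limit left 6, 1, 2 and 1 peaks in the whole lists. With the isoform of the longest coding sequence, 7 peaks were in a 3' UTR instead of 13, because the Elavl2 isoform so chosen ends before the 6 Elavl2 peaks. With at least 50% of both peaks shared, 2 peaks instead of 5 were overlapped on another day. With at least 50% of a peak in exons, the shares of protein-coding genes with a peak were 7.87%, 10.5%, 17.8% and 12.2%. No replicate could be left out, and no paired analysis was possible because no value per replicate was given. Depth is unknown, so what it limits could not be stated.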

Other observations

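The genes nearest to Elavl4 in pattern also carried runs of intronic peaks at E11.5, and their signals were alike to different degrees. In Trak1 all 24 peaks inside introns lay in a single intron, with signals from 39.0 to 39.5. In Upf2, 16 of 17 lay in a single intron, and the signals of the 17 ran from 13.4 to 44.0 with a median of 42.4, a ratio of 3.28 between the highest and the lowest, beside 1.06 in Elavl4. In Rsf1, 16 of 20 did, and the signals of the 20 ran from 20.5 to 24.2 with a median of 23.9. Ptn, a growth factor gene, had 87 such peaks in 1 intron with signals from 74.2 to 77.2, and Nfib, a transcription factor gene of the developing cortex, had 94 in 1 intron with signals from 17.0 to 20.1; these last 2 genes were chosen after their values were seen.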
